A study of Homo sapiens with 13 samples.

Results

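Of 18602 protein-coding genes on chromosomes 1 to 22, 2828 (15.2%) had no accessible region at their promoter in either of 2 small cell lung cancer (SCLC) lines, H82 and H146. The promoter of a gene reached 1 kb to either side of its transcription start site (TSS), which was the 5′ end of the gene's record in the GENCODE release 44 annotation on hg38. Members were chosen by the regions themselves, that is by the absence of any region of either line overlapping this window, so that absence is a description and not a finding. Olfactory receptor and KRTAP (hair keratin-associated protein) genes were left out by name. Of these, 424 of 509 (83.3%) also had no region at the TSS. The other considered genes had a region in both lines (14511), in H82 only (926) or in H146 only (337).

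The regions came from ATAC-seq, in which the Tn5 transposase inserts sequencing adaptors into open DNA. H82 is a NEUROD1-driven (SCLC-N) line and H146 belongs to another neuroendocrine subtype, and neither is described as genetically modified. The libraries were 4 untreated and 3 FHD-286-treated samples of H146, and 3 untreated and 3 FHD-286-treated samples of H82, with the drug given at 100 nM over 14 days. FHD-286 blocks SMARCA4 and SMARCA2, the ATPases of the SWI/SNF chromatin remodelling complexes. For each line an atlas pooled over its untreated and treated libraries was analysed, and it held region positions without height, read count or library of origin. There were therefore no replicate values, no depth and no test of FHD-286, and a difference between the lines cannot be told apart from the number and depth of their libraries. The autosomes held 201148 H82 regions and 169986 H146 regions. The label of the lines was checked on 13 neuroendocrine genes, among them NEUROD1, INSM1 and CHGA, of which 11 had a TSS region in both lines, 2 in H82 only and 0 in neither.

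Human promoters fall broadly into those within CpG islands, stretches rich in GC and in CG dinucleotides, and those without. Island promoters serve most housekeeping and developmental genes and tend to lie in nucleosome-depleted, accessible chromatin in many cell types, also where the gene is little transcribed. Promoters outside islands often belong to genes used in a single tissue, some carry a TATA box shortly before the TSS, and they are typically accessible where the gene is active.

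The promoters of the first set are shown because a TATA word was more frequent among members than among other promoters. A control word, the same letters read on the opposite strand, was also more frequent among members, as given below. A further reason is that these genes serve skin, muscle, saliva or oocyte. The 81 bases from 60 before to 20 after the TSS are given 5′ to 3′ along the gene, from hg38, with the word TATAAA in capitals. They are the 8 members of the tissue lists with the word whose nearest region lay farthest away, starting with 2 myosin heavy chains of fast muscle fibres (MYH4, MYH1). Filaggrin (FLG), involucrin (IVL) and repetin (RPTN) belong to the cornified layer of the skin, and SPINK5 encodes the epidermal protease inhibitor LEKTI. PRB3 encodes a salivary proline-rich protein and OOSP2 an oocyte-secreted protein.
MYH4 (chr17:10469539-10469619, minus strand): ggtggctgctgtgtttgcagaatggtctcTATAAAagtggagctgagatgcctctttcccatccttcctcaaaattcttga
MYH1 (chr17:10518522-10518602, minus strand): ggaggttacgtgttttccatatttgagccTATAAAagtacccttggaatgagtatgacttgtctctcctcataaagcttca
FLG (chr1:152325219-152325299, minus strand): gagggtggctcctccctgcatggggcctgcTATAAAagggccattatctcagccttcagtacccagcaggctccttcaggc
IVL (chr1:152908486-152908566, plus strand): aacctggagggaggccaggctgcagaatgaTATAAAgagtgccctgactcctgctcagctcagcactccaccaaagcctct
RPTN (chr1:152159208-152159288, minus strand): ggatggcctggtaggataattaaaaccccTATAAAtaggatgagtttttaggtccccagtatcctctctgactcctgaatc
SPINK5 (chr5:148025623-148025703, plus strand): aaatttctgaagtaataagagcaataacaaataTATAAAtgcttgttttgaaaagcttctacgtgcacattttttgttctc
PRB3 (chr12:11269687-11269767, minus strand): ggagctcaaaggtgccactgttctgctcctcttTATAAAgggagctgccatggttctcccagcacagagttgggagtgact
OOSP2 (chr11:60040349-60040429, plus strand): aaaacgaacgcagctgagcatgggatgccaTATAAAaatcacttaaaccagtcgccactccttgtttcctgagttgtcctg

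In these promoters the word began between 31 and 27 bases before the TSS, at -31 in MYH4, MYH1 and RPTN, at -30 in FLG, IVL and OOSP2, and at -27 in SPINK5 and PRB3. None of the 8 had a region at any annotated TSS in either line. The nearest region was 84.9 kb (H82) and 111 kb (H146) from MYH4, and 73.8 kb in both lines from FLG. At the near end of this set, RPTN had its nearest regions 13.5 kb (H82) and 26.4 kb (H146) away.

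The second set is of the opposite composition. These are the 4 members with the highest CpG observed/expected ratio among those with no region at any annotated TSS, with every CG in capitals. NKX6-2 is a homeobox transcription factor of the nervous system, RBMXL2 an RNA-binding protein of the testis and H2AJ a histone H2A variant; ABHD12B is a member of the alpha/beta hydrolase family.
NKX6-2 (chr10:132786127-132786207, minus strand): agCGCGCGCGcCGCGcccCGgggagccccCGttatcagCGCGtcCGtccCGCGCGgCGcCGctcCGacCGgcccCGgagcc
ABHD12B (chr14:50871993-50872073, plus strand): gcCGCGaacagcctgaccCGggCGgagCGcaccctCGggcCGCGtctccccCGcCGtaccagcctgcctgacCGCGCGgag
RBMXL2 (chr11:7088938-7089018, plus strand): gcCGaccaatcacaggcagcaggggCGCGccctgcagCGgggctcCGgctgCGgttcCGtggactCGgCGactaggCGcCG
H2AJ (chr12:14774345-14774425, plus strand): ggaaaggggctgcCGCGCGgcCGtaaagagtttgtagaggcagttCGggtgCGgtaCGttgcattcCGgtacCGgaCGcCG

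The 81 bases held 19 CG dinucleotides at NKX6-2, 13 at ABHD12B, and 11 each at RBMXL2 and H2AJ. GC content within 250 bp of the TSS was 80.0% at NKX6-2, 63.3% at ABHD12B, 57.9% at RBMXL2 and 60.9% at H2AJ. Such promoters were the exception among members.

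The 5′ end of the gene record was not the only annotated start of a gene, and this split the members. Of the 2828 members, 1025 (36.2%) had a region within 1 kb of another annotated TSS of the same gene, 819 of them in both lines (79.9%), 14.2% in H82 only and 5.85% in H146 only. The other 1803, or 9.69% of all genes considered, had no region at any annotated TSS in either line. In 703 of the 1025 (68.6%) the TSS of the Ensembl canonical transcript lay over 1 kb from the gene-record TSS, against 163 of the 1803 (9.04%). RefSeq starts were available for 2019 members. They lay within 1 kb of the gene-record TSS, where the rule left no region, in 89.3% of the matched genes without a region at any TSS and in 39.0% of those with a region at another one, so what follows is largely set by the choice of members. A region lay at the RefSeq start of 435 of 803 matched genes (54.2%) with a region at another TSS and of 16 of 1216 matched genes (1.32%) without one, against 98.1% of matched genes with a region in both lines.

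The clearest case was EEF1A1, which encodes translation elongation factor 1 alpha and was the 1 member among 13 housekeeping genes. Its record began at chr6:73525587, 1.54 kb from the nearest region of both lines, whereas the canonical TSS stood at chr6:73521032 and a region of each line overlapped another annotated start. The longest such distance was at KCNIP1, an auxiliary subunit of voltage-gated potassium channels, whose record began 81.6 kb (H82) and 81.5 kb (H146) from the nearest region although a region of each line overlapped another annotated start. Genes with a region at another start were long, with a median of 53.8 kb and 9 annotated transcripts, and only genes with several annotated starts could enter this set. The 1803 genes without one were short, with a median of 12.7 kb and 2 transcripts, against 31.3 kb and 7 transcripts for genes with a region in both lines.

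GC content was low at the members' TSSs. Within 250 bp of the gene-record TSS the median was 47.1% (quartiles 41.1 and 53.9) for members and 64.7% (58.3 and 71.3) for genes with a region in both lines. Genes with a region in 1 line lay between them, at 56.0% for H82 only and 53.3% for H146 only. The median was lower in members on 22 of 22 chromosomes. The genes with no region at any TSS and those with a region at another TSS had nearly the same median at the gene-record TSS, 47.3% and 46.7%. At the canonical TSS these sets parted, with 47.7% and 59.9% against 67.3% for genes with a region in both lines.

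**Figure D1:**
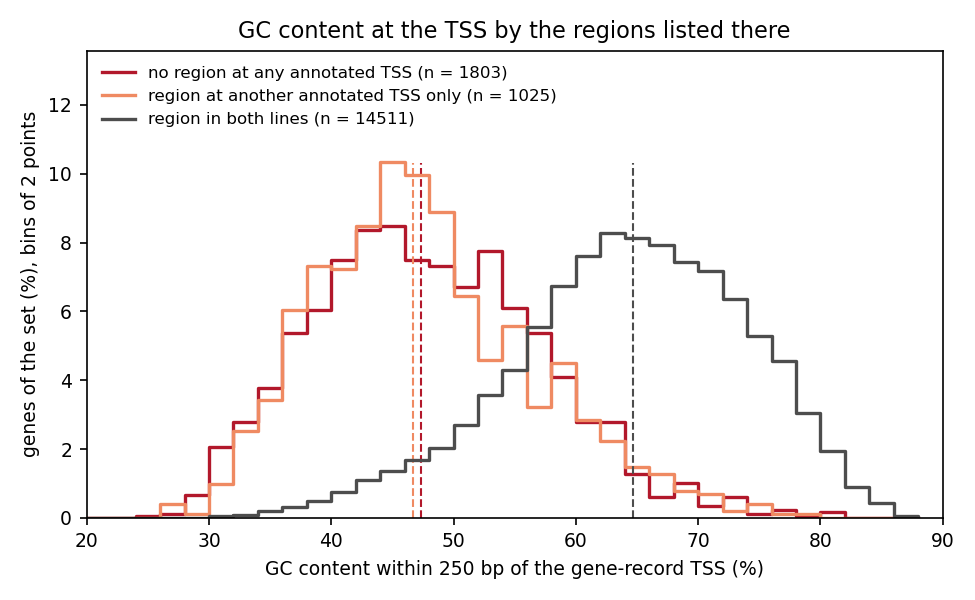
Share of genes (y, in % of each set) by GC content within 250 bp of the gene-record TSS (x, in %, bins of 2 points) for the 1803 members with no region at any annotated TSS, the 1025 with a region at another annotated TSS and the 14511 genes with a region in both lines. Dashed lines mark the medians, which lie at 47.3% and 46.7% for the member sets and at 64.7% for genes with a region in both lines.

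Read by GC class, the share of genes that were members fell at each step. Below 35% GC, 187 of 245 genes (76.3%) were members, and from 45 to 50% it was 591 of 1395 (42.4%). From 60 to 65% the share was 5.19%, and at 70% or more 42 of 4446 genes (0.945%) were members. The share of all genes, 15.2%, lay between those of the 50 to 55% class (25.2%) and the 55 to 60% class (11.9%).

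CG dinucleotides were depleted as well. The CpG observed/expected ratio, which sets the number of CG dinucleotides against that from the C and G content, had a median of 0.227 (quartiles 0.143 and 0.360) in members and 0.800 (0.624 and 0.905) in genes with a region in both lines, and was lower in members on 22 of 22 chromosomes. CpG-rich TSSs, here with GC of at least 55% and a ratio of at least 0.6, made up 7.43% of members (210 genes) and 71.1% of genes with a region in both lines. Of the 10795 CpG-rich genes considered 1.95% were members, and of the 7807 CpG-poor genes 33.5%.

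The TATA word was searched as TATAAA on the sense strand, lying wholly between 40 and 20 bases before the TSS. It stood at 199 members (7.04%), at 251 genes with a region in both lines (1.73%) and at 509 of all genes considered (2.74%). The share was higher in members than in genes with a region in both lines on 21 of 22 chromosomes. It differed within the members, with 175 of the 1803 genes without a region at any TSS (9.71%) against 24 of the 1025 others (2.34%). The same letters read on the opposite strand (TTTATA) served as a control for base composition in the same window. This control word was also more frequent in members, at 1.49% against 0.379% of genes with a region in both lines. A match is a run of letters and not a mapped TATA box, and both words are AT-rich, as the members' windows were.

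Reads from near-identical copies are harder to place, and the mapping filter behind the regions was not stated. The share of 31-base words in the TSS window that occur elsewhere in hg38 was therefore counted. At 307 members (10.9%) at least 50% of the words were repeated, against 333 genes with a region in both lines (2.29%). Among CpG-poor genes with such repetition 294 of 543 (54.1%) were members, and without it 2324 of 7264 (32.0%). No repeated word was found at 1743 members (61.6%), against 80.7% of genes with a region in both lines and 77.1% of all genes considered. The part of read placement in the missing regions was not tested.

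Some of the members belonged to recognisable gene families. Family members were counted by symbol in 59 families of 5 or more genes, which are not independent of each other because families sit in clusters. At least 50% of genes were members in 24 families and at least 75% in 14, while 10 families lay below the 15.2% of all genes. The families with at least 50% held 384 of the 2828 members.

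**Figure D2:**
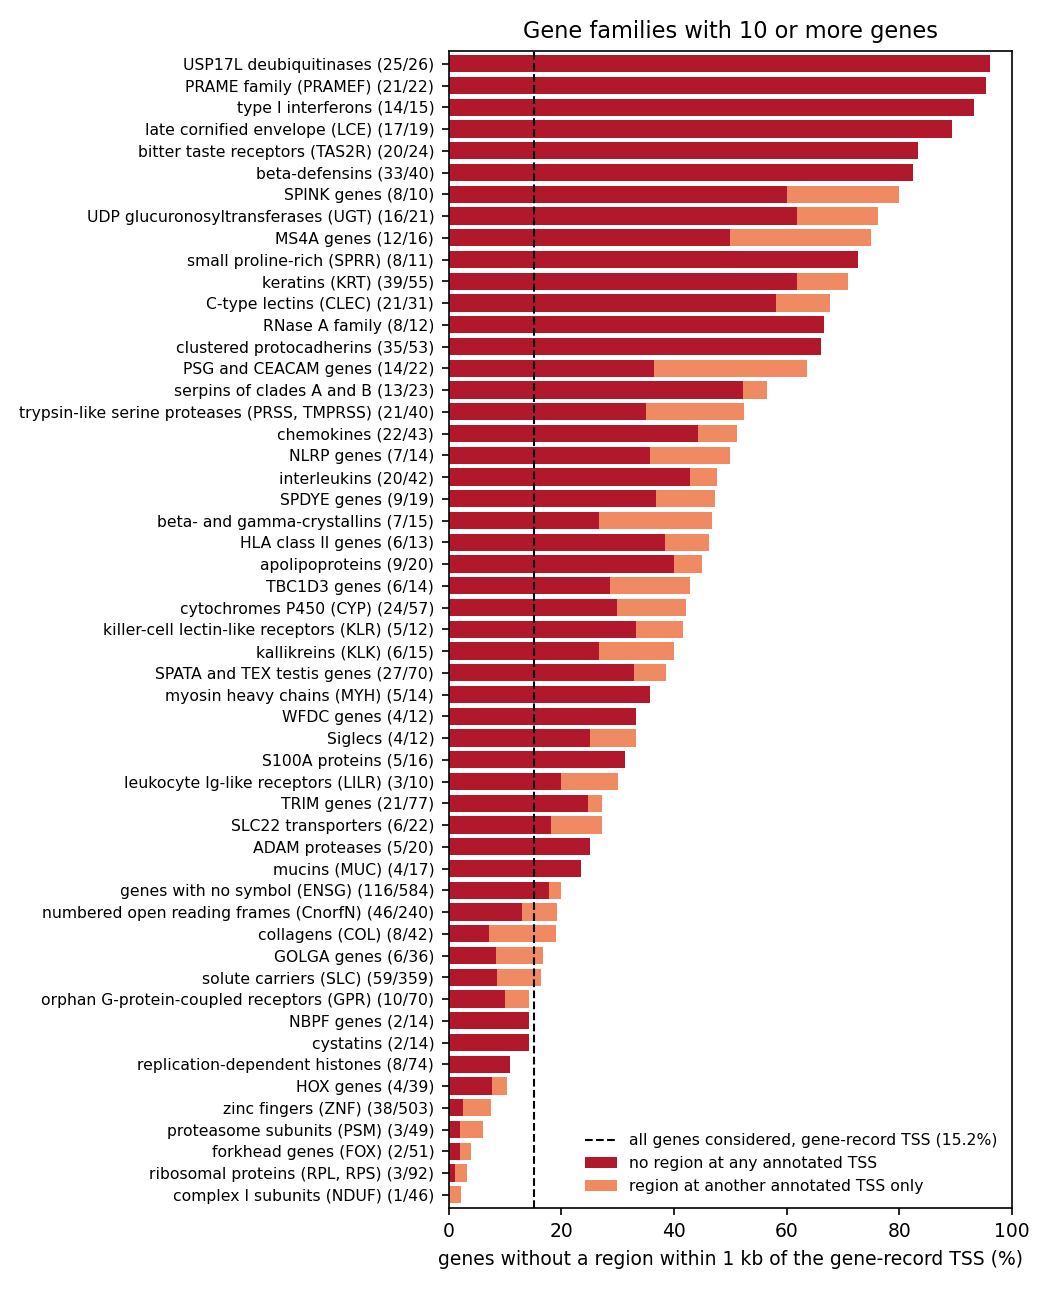
Share of genes (x, in %) without a region within 1 kb of the gene-record TSS for families with 10 or more genes (y, members and genes in brackets), split into genes with no region at any annotated TSS and genes with a region at another one. The dashed line marks the 15.2% of all genes considered; USP17L genes stand at the top with 25 of 26 and complex I subunits at the bottom with 1 of 46.

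Genes of the skin barrier formed a block. Late cornified envelope (LCE) genes, whose products are laid down under the membrane of dying keratinocytes, were members in 17 of 19 cases, small proline-rich (SPRR) genes in 8 of 11 and keratins in 39 of 55. Of the LCE members 13 had their nearest region over 10 kb away, and LCE3E was 51.1 kb (H82) and 56.5 kb (H146) from one. The SPRR genes lay closer, with a median of 7.33 kb in H82 and 10.6 kb in H146. The TATA word stood at 6 of the 17 LCE, 5 of the 8 SPRR and 15 of the 39 keratin members. Serine protease inhibitors of the SPINK family were members in 8 of 10 cases, with SPINK5 at 51.5 kb (H82) and 66.3 kb (H146).

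Families of immune cells and host defence ranged widely. Fc receptor-like (FCRL) genes of B cells were members in 8 of 8 cases, although 3 of these had a region at another annotated TSS. FCRL1 was 46.0 kb (H82) and 46.2 kb (H146) from a region. CD1 genes, which present lipids to T cells, gave 4 of 5, killer-cell immunoglobulin-like receptors (KIR) 6 of 7, MS4A genes 12 of 16 and C-type lectins 21 of 31. Type I interferons, induced on viral infection, gave 14 of 15, with medians of 4.01 kb (H82) and 4.26 kb (H146). The gene farthest away in that cluster was IFNB1, at 33.0 kb (H82) and 20.7 kb (H146). Chemokines (22 of 43) and interleukins (20 of 42) were divided more evenly. HLA class II genes (6 of 13), killer-cell lectin-like receptors (5 of 12), Siglecs (4 of 12) and leukocyte immunoglobulin-like receptors (3 of 10) had lower shares.

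Antimicrobial peptides followed the same pattern. The 6 alpha-defensins of neutrophils and Paneth cells were all members, with 6 of 6 lacking a region at any TSS, and beta-defensins of epithelia gave 33 of 40. Repetition reached 50% of the window at 3 of the 6 alpha-defensins and at 18 of the 33 beta-defensins. DEFA5, at which 4.25% of the words were repeated, had its nearest regions 20.6 kb (H82) and 6.79 kb (H146) away. RNase A family genes gave 8 of 12, and RNASE6 and RNASE1 had no repeated words and lay 74.4 kb and 52.8 kb from the nearest H82 region.

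Taste receptors and metabolic enzymes made a further group. Bitter taste receptors (TAS2R) gave 20 of 24, with 0 repeated at 50% or more and 0 with the TATA word. UDP glucuronosyltransferases (UGT), which conjugate drugs and bilirubin in the liver, gave 16 of 21, and cytochromes P450 24 of 57. Alcohol dehydrogenases (ADH) gave 6 of 7, and their median distances were 16.5 kb in H82 and 120 kb in H146. ADH1B lay at 21.5 kb (H82) and 142 kb (H146), and ADH4 at 47.4 kb and 68.5 kb.

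Families that exist in many near-identical copies ranged widely. USP17L deubiquitinases gave 25 of 26 and PRAME family (PRAMEF) genes 21 of 22. Repetition reached 50% of the window at 25 of 25 and 19 of 21 of these members. Other copied families had lower shares, with SPDYE genes at 9 of 19, TBC1D3 genes at 6 of 14, GOLGA genes at 6 of 36 and NBPF genes at 2 of 14, although the median window of their members was repeated to 93.4%, 98.6%, 90.3% and 90.1%. PRAMEF genes also showed the widest separation between lines of the 59 families, with median distances of 13.1 kb in H82 and 257 kb in H146.

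The lowest shares were in families of mixed function. Zinc finger (ZNF) genes gave 38 of 503 (7.55%), proteasome subunits 3 of 49, forkhead genes 2 of 51, ribosomal protein genes 3 of 92 and complex I subunits 1 of 46. For these 4 smaller families at most 1 gene each had no region at any annotated TSS. Solute carriers (59 of 359, 16.4%) lay near the share of all genes. Replication-dependent histones gave 8 of 74 and HOX genes 4 of 39. Clustered protocadherins, neuronal adhesion molecules with a promoter for each variable exon, gave 35 of 53, and 35 of these 35 were without a region at any TSS.

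Lists of genes known for a single tissue or cell type, with a housekeeping list beside them, gave 121 members among 262 genes, of which 26 carried the TATA word. Milk proteins were members in 4 of 4 cases, skin barrier genes in 16 of 21, red cell genes in 7 of 10, and sperm and myeloid genes in 11 of 17 each. Neuroendocrine genes gave 0 of 13. Lung epithelium and kidney genes, at 2 of 9 each, were the tissue lists closest to the 15.2% of all genes.

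**Figure D3:**
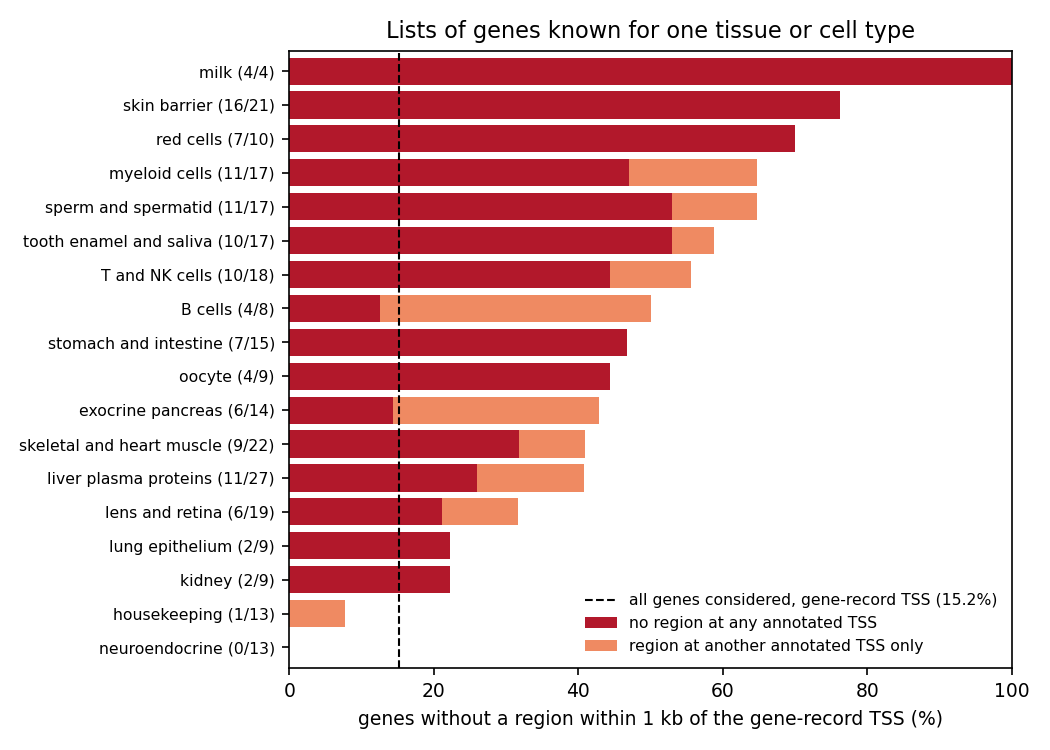
Share of genes (x, in %) without a region within 1 kb of the gene-record TSS in 18 gene lists (y, members and genes in brackets), split as in the plot of families. The milk list stands at 4 of 4, the neuroendocrine list at 0 of 13, and the 1 housekeeping member had a region at another annotated TSS.

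The milk genes were CSN1S1, CSN2 and CSN3, which encode caseins, and LALBA, which encodes alpha-lactalbumin. CSN1S1 lay 6.63 kb from a region in both lines and LALBA 16.5 kb in both. CSN3 was close to an H146 region (1.93 kb) and far from an H82 region (15.9 kb). GC content was 31.1% at CSN1S1 and CSN3, 32.9% at CSN2 and 47.3% at LALBA.

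The beta-globin cluster supplied 5 of the 7 red cell members. The alpha-globin genes HBA1 and HBA2, of the same list, had a region at the TSS in both lines, and EPB42 in H82 only. The gene records of HBG2 and HBE1, the fetal and embryonic chains, began close together at chr11:5505605 and chr11:5505652, far from the record start of HBG1 at chr11:5249857. From those distant starts the nearest region was 1.53 kb and 1.57 kb away in H82 and 27.4 kb and 27.5 kb in H146, so these values do not describe promoters within the cluster. HBB, the adult chain, lay 7.63 kb, HBD 21.9 kb and HBG1 28.1 kb from a region in both lines. GYPB, which encodes a glycophorin of the red cell membrane, showed the reverse order, 107 kb from an H82 region and 2.10 kb from an H146 region. At GYPB 72.2% of the words were repeated, and repetition reached 50% of the window at 3 of the 7 red cell members.

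Liver plasma proteins gave 11 of 27, and 4 of these had a region at another annotated TSS. Albumin (ALB) lay 24.6 kb (H82) and 4.06 kb (H146) from a region, fibrinogen alpha (FGA) 28.1 kb and 11.9 kb, and alpha-1 antitrypsin (SERPINA1) 43.3 kb and 20.4 kb. All 3 were nearer to an H146 region, but not all of the 11 members were. AFP lay at 7.64 kb (H82) and 8.63 kb (H146), ITIH1 at 6.13 kb and 6.10 kb, and C-reactive protein (CRP) at 5.00 kb in both lines. AFP and ITIH1 were among the 4 with a region at another annotated TSS. The list's median distance was 5.84 kb in H82 and 4.06 kb in H146.

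Muscle genes gave 9 of 22, with 4 of the 9 being myosin heavy chains on chromosome 17. MYH8 lay 37.3 kb (H82) and 63.9 kb (H146) from a region and MYH2 19.0 kb and 55.8 kb, so each of these 4 myosin genes, MYH4 and MYH1 included, was nearer to an H82 region. MYL1, a myosin light chain, had the opposite order with 22.1 kb and 4.93 kb. T and NK cell genes gave 10 of 18, while 4 had a region in both lines, CD8A, CD8B and CD3G among them. Of the members, CD2 lay 9.60 kb (H82) and 6.18 kb (H146) away, GZMB (granzyme B) 5.94 kb and 28.4 kb, and CD3D 1.24 kb in both lines. Of myeloid genes, CD163 had its nearest region 31.6 kb away in both lines, and a region stood at another of its annotated TSSs. CD33 lay 42.1 kb (H82) and 26.0 kb (H146) from a region.

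Sperm genes gave 11 of 17. The protamine genes PRM1 and PRM2, which package sperm DNA, lay 16.3 kb and 18.8 kb from an H82 region and 7.51 kb and 2.66 kb from an H146 region. Their GC content was 57.7% and 62.7%, above the median of members, while their CpG observed/expected ratios were 0.312 and 0.366. ZPBP2, a zona pellucida binding protein, was CpG-rich with 68.7% GC and a ratio of 0.966, and it lay 3.83 kb (H82) and 55.2 kb (H146) from a region.

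Runs were counted in the order of the genes considered, passing over olfactory receptor and KRTAP genes between them. In this order 1371 members stood alone, 258 pairs occurred, and 197 runs of 3 or more held 941 members (33.3%). Runs of 5 or more held 505 members (17.9%), and 13 runs had 10 or more. Among the 1803 genes without a region at any TSS, 629 (34.9%) stood in runs of 3 or more. The stretches between neighbouring regions of the joined atlases held 1 member each in 2294 of 2514 cases, and 54 such stretches held 3 or more members.

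The longest run counted 49 members over 1106 kb of chromosome 8, from DEFA6 to FAM90A12P, and joined defensin, FAM90A and USP17L genes. Repetition reached 50% of the window at 46 of them. The atlases held 25 H82 and 33 H146 regions between its first and last TSS. The next run, 20 members from AADACL4 to PRAMEF13 over 557 kb of chromosome 1, held 14 H82 regions and 1 H146 region, and its median distances were 20.2 kb and 248 kb. Repetition reached 50% at 14 of these 20.

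After these, 3 further runs of the naming rule were described, the last of which tied at 13 members with a run on chromosome 5 (TAF11L4 to CDH18, 8 of 13 windows repeated to 50% or more) and one on chromosome 17 (KRT23 to KRT13, 0 of 13). On chromosome 4, 16 members from UGT2A1 to SMR3B over 717 kb joined sulfotransferase, casein, histatin and salivary genes with a median GC content of 32.9%, and 28 H82 and 36 H146 regions lay among them. On chromosome 11, 15 members from CBLIF, which encodes gastric intrinsic factor, to MS4A14 spanned 533 kb with 13 H82 and 10 H146 regions. On chromosome 1, 13 members from TCHHL1 to LCE3B spanned 525 kb of the epidermal differentiation complex with 14 H82 and 7 H146 regions. Repetition of 50% was reached at 0, 1 and 0 of their members. Regions were thus listed inside these runs, though not within 1 kb of the genes' record starts.

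**Figure D4:**
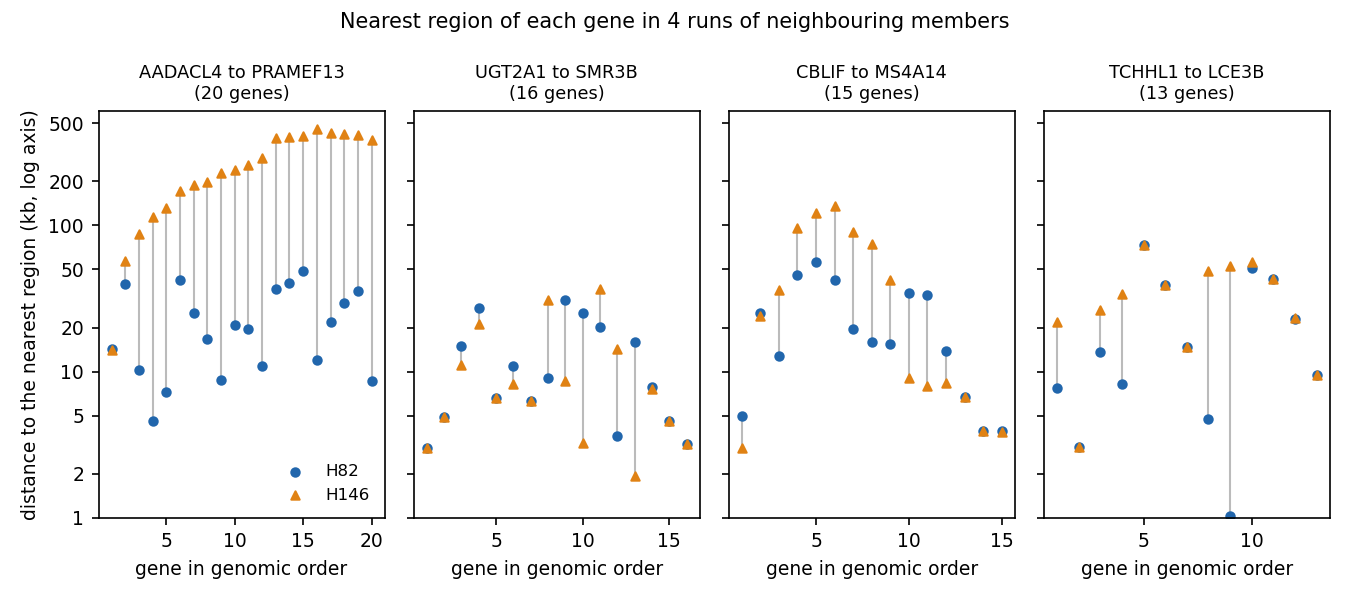
Distance from each gene-record TSS to the nearest region (y, kb, log axis) of H82 (circles) and H146 (triangles) for the genes of 4 runs in genomic order (x), with a grey line joining the values of a gene. In the run from AADACL4 to PRAMEF13 the H146 values reach 458 kb at HNRNPCL2 while the H82 values stay at or below 48.5 kb; in the run from UGT2A1 to SMR3B the lines are mixed.

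Members were spread unevenly over chromosomes. The share of genes that were members was highest on chromosomes 4 (23.5%), 5 (20.8%), 8 (20.3%) and 12 (19.1%). It was lowest on chromosomes 18 (9.02%), 15 (9.27%) and 13 (9.60%).

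The nearest region was usually within 10 kb. The median distance from a member's TSS was 5.86 kb to an H82 region (quartiles 2.67 and 12.8) and 7.21 kb to an H146 region (3.09 and 17.0). By the median, H82 was nearer on 17 of 22 chromosomes, beside the larger H82 atlas. By gene, the nearer region was of H82 at 1267 members (44.8%), of H146 at 1149 (40.6%), and at the same distance at 412 (14.6%). The nearest H82 and H146 regions overlapped each other at 1307 members (46.2%).

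The genes without a region at any TSS were farther from one, at medians of 7.49 kb (H82) and 9.19 kb (H146). The genes with a region at another TSS lay at 3.80 kb and 4.62 kb. This order was largely fixed by the definition of the sets, because only the latter must have a region near an annotated start. A region lay within 10 kb of 1526 members (54.0%) in both lines, of 377 in H82 only and of 185 in H146 only. The remaining 740 members (26.2%) had none within 10 kb in either line. Within 50 kb, 32 members had none, and within 100 kb 4 had none.

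**Figure D5:**
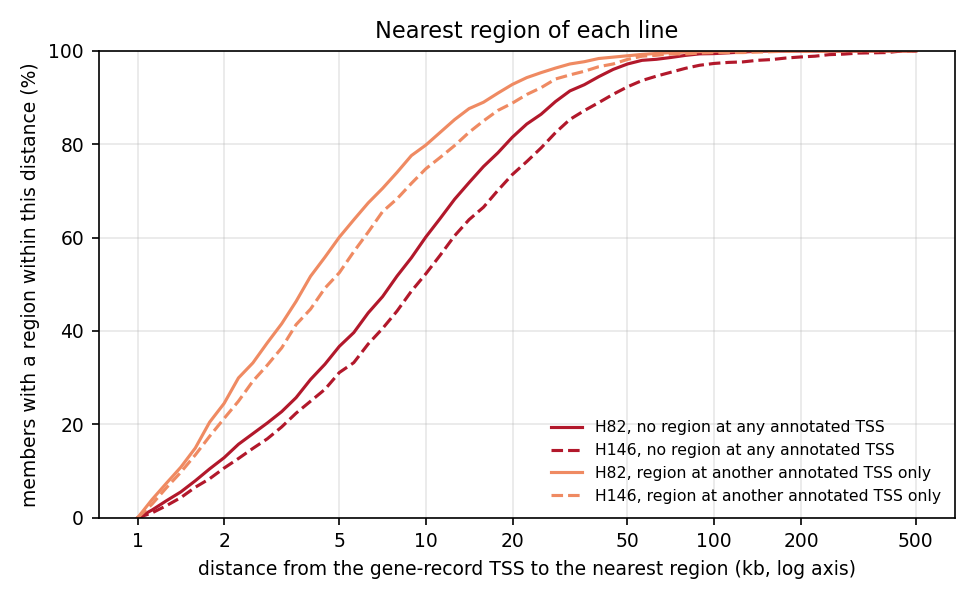
Share of members (y, in %) with a region within a given distance of the gene-record TSS (x, kb, log axis), for H82 (solid) and H146 (dashed), in the 1803 members with no region at any annotated TSS and the 1025 with a region at another one. Medians lie at 7.49 kb and 9.19 kb in the first set and at 3.80 kb and 4.62 kb in the second, with H82 the nearer line in each. The sets were themselves defined by regions at annotated starts.

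At 2247 members (79.5%) the nearest region stood at no annotated protein-coding TSS, at 306 at another TSS of the same gene and at 275 at a TSS of another gene. The rule itself left out regions at the member's gene-record TSS. Starts of other gene types were not checked, and the share over all regions was not counted. The nearest region lay upstream of the TSS at 1326 members (46.9%) and had a median width of 432 bp. A region lay within the gene body at 1968 members (69.6%), a share that the rule lowers, against 94.9% of all genes considered. It was listed in both lines at 1614 members, in H82 only at 247 and in H146 only at 107. The other 860 (30.4%) had none. The surroundings were also sparser, with a median of 12 H82 and 10 H146 regions 10 to 100 kb from the TSS, against 19 and 15 for genes with a region in both lines. Each count was lower for members on 21 of 22 chromosomes.

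At the limit of the rule, the members just inside included ZNF565 (1003 bp from an H82 region) and IQCJ (1004 bp in H146). The genes just outside were ASPN, AGRP and TFAP2D, with an H82 region at 1000, 999 and 995 bp.

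The 10 members farthest from any region included genes of muscle, blood, brain and testis. HS3ST3A1, a heparan sulfate sulfotransferase, lay at 134 kb and 239 kb and had 74.1% GC at its TSS, far above the members' median. CDH13, which encodes T-cadherin, lay at 122 kb and 170 kb, although another of its annotated starts was 2.64 kb (2639 bp) from an H82 region.

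MNDA, a nuclear antigen of myeloid cells, was 121 kb from an H82 region and 310 kb from an H146 region. NPAP1 (97.3 kb and 249 kb) and HMGB4 (88.4 kb and 227 kb) showed the same order. POTED lay at 86.8 kb in both lines, MYH4 at 84.9 kb and 111 kb, and SPATA31D4, a testis gene whose window was 100% repeated, at 78.6 kb and 162 kb. KCNIP1, described above, was the 1 gene of the 10 with a region at another TSS. An H82 region was nearer than any H146 region at 7 of the 10, and the lines differed by under 2 kb at the other 3, POTED and KCNIP1 among them.

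The largest differences between the lines stood in both directions. The 5 members most in favour of H82 were HNRNPCL2, PRAMEF26, HNRNPCL4, PRAMEF9 and PRAMEF13 of the chromosome 1 run, with HNRNPCL2 at 12.0 kb (H82) and 458 kb (H146). In the other direction TRIM48 lay at 610 kb (H82) and 11.4 kb (H146). CCR1, a chemokine receptor of myeloid cells with no repeated words, lay at 129 kb and 6.68 kb. GYPB, TAS2R46 and CDH9 followed at 107, 109 and 96.3 kb in H82 against 2.10, 16.8 and 9.50 kb in H146. At CDH9 the difference held for the gene-record TSS only. Another of its annotated starts was 615 bp from an H82 region and 612 bp from an H146 region. CCR1 was the 1 gene of these 10 with an unrepeated window.

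CpG-rich members were few. Of the 210, 67 had a region at another annotated TSS, and of the 143 without one 134 had under 50% of the window repeated. The nearest region lay within 5 kb at 71 of the 143 and over 10 kb away at 42. The 10 with the highest CpG observed/expected ratio, at least 0.959, included the 4 shown at the start.

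NKX6-2 reached a ratio of 1.10 and lay 4.22 kb (H82) and 4.37 kb (H146) from a region. SOX8, a transcription factor of neural crest and testis, had 79.8% GC and lay 1.62 kb and 1.58 kb from a region, close to the limit of the rule. SLC25A31, the ADP/ATP carrier of the testis, lay 2.29 kb from a region in both lines. RBMXL2 was farther, at 13.7 kb (H82) and 9.27 kb (H146). AJAP1 lay at 1.47 kb and 1.42 kb. TXNRD1 and ZNF541 belonged to the same 10 but had a region at another annotated TSS. Among genes with no region at any TSS, FOXC2, a forkhead factor of mesoderm, and DIO3, the thyroid hormone-inactivating deiodinase, came next. FOXC2 lay 2.71 kb and 2.56 kb from a region, and DIO3 24.1 kb and 68.2 kb.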

How the data were processed

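ATAC-seq of H82 and H146 cells was used. Per the labels and the study's methods, the authors trimmed paired reads with Trim Galore 0.4.4, aligned them to hg38 with Bowtie2 2.3.4, removed reads of identical start and orientation with Picard and called regions per sample with MACS2. They took out blacklisted regions and joined those of a line within 500 bp. The deposited values are other than a measured level, namely the start and end of each region in bp, and 0 columns of other samples were set aside. Depth was unknown, and a shift for the Tn5 cut was not stated in the sources used here. A region was listed if any library of the line gave it.

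TSSs came from GENCODE release 44 and sequence from hg38. RefSeq starts were matched by symbol. Distances run from the TSS to the nearest base of a region. GC and CpG were read within 250 bp of the TSS, repetition as 31-base words found elsewhere in hg38, on either strand. Python 3.11.15, numpy 2.4.6, pandas 2.3.3 and numba 0.67.0 were used, and the functions were tested on simulated data. An edgeR test of FHD-286 had been planned for values per sample and was not run. No test was made: medians, quartiles and counts of chromosomes are given, and genes are not replicates.

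Named genes were the 10 farthest from a region, the 5 longest runs, the 10 highest CpG ratios with GC of at least 55%, a symbol and under 10% repetition, the 3 on either side of the limit, up to 4 per family or list by distance, the 5 largest line differences each way and 8 list genes with the TATA word. A few genes that met this rule are not reported here. Others were named after their values were seen, from the lists (RPTN, CSN3, HBB, CRP and the like) or as cases. The members and lists were chosen with earlier results of these data known. Alternatives varied the window, the TSS, the region width, the overlap and the genes kept.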

Additional observations from a re-analysis of the deposited data

How the results depend on the processing

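The number of members stayed within 1.5 times of 2828 with windows of 500 bp or 2 kb, the canonical TSS, regions of at least 500 bp, an overlap of at least 200 bp, olfactory receptor and KRTAP genes kept, or named genes without a readthrough tag. It was 1360 with a window of 5 kb, 740 with 10 kb and 1803 with all annotated TSSs. Median GC content of members was 45.7% in windows of 500 bp to either side, 48.8% in 100 bp and, for the 2455 members chosen anew at the canonical TSS, 48.3%, against 61.8%, 66.7% and 67.5% for genes with a region in both lines. CpG-rich members were 5.23% with 500 bp to either side and 8.66% with GC of at least 50%. With regions of at least 500 bp, which also changes who is a member, the median distances were 10.8 kb (H82) and 13.1 kb (H146), and at the canonical TSS 6.24 kb and 7.98 kb. Runs of 3 or more held 41.1% of members with olfactory receptor and KRTAP genes kept, and runs of 5 or more held 17.9%. Of 49 families above the share of all genes, 46 were also above it with all annotated TSSs and 45 with a window of 5 kb. A window of 5 kb can only lower a share, and that of all genes fell from 15.2% to 7.31%. A family's share moved past its 95% binomial interval in 33 of 59 families at 5 kb and in 8 with all annotated TSSs. That interval takes genes as independent, which genes in clusters are not. At 5 kb type I interferons fell from 93.3% to 26.7%, keratins from 70.9% to 32.7%, UGT genes from 76.2% to 33.3% and FCRL genes from 100% to 50%.

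No paired analysis was possible because the atlases hold no value per sample, and for the same reason leaving out a library was not possible. Region height and depth were unknown, and absence of a region is not a measure of closed chromatin.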

Other observations

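Several CpG-rich members are known from germ cells, and a list of 66 genes of meiosis and of the piRNA pathway, which silences transposons in germ cells, was written after the members had been seen. It is a description without a test, and its share of CpG-rich members was in part set by that choice. Of the 66 genes, 26 (39.4%) had no region at the gene-record TSS, beside 15.2% of all genes considered. At any annotated TSS 18 (27.3%) had none, beside 9.69%. A region was listed in both lines at 30, in H82 only at 9 and in H146 only at 1. Unlike most members, these were CpG-rich: 21 of the 26 met that definition, and their median GC content was 60.8%, with a CpG observed/expected ratio of 0.801. Of the 49 CpG-rich genes of the list 42.9% were members, beside 1.95% of all CpG-rich genes considered. Of its 17 CpG-poor genes 5 (29.4%) were members, beside 33.5% of all CpG-poor genes considered. The TATA word stood at 0 of the 26 and repetition reached 50% at 0.

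Among them DDX4, the germ cell helicase VASA, lay 25.2 kb (H82) and 25.1 kb (H146) from a region. TDRD6, a Tudor protein of male germ cells, lay at 31.8 kb and 34.3 kb, and RBM46, a germ cell RNA-binding protein, at 36.6 kb and 36.4 kb. STK31, a Tudor domain protein of germ cells, lay at 12.8 kb and 9.96 kb. MOV10L1, a piRNA helicase with 75.2% GC, was a member with a region at another annotated TSS. DAZL, an RNA-binding protein of germ cells, had 45.5% GC and a ratio of 0 and was CpG-poor.

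A list of 33 imprinted genes, which are expressed from a single parental allele, was added in the same way. Of these 10 (30.3%) were members, beside 15.2% of all genes considered. At any annotated TSS 6 (18.2%) had no region, beside 9.69%. NPAP1, named above, and SNRPN lie in the imprinted part of chromosome 15, with SNRPN at 50.2 kb (H82) and 131 kb (H146) and with a region at another annotated TSS. PEG3, ZIM2 and USP29 lie together on chromosome 19. The records of PEG3 and ZIM2 began at chr19:56840728 and chr19:56840731, so both genes count nearly the same window. These starts were 1.10 kb from an H82 region and 2.66 kb from an H146 region. USP29 was 12.8 kb from a region in both lines.

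Of the clustered protocadherins, members made up 10 of 15 alpha, 10 of 16 beta and 15 of 22 gamma genes. Median distances to an H82 and an H146 region were 13.4 kb and 29.8 kb for alpha, 4.67 kb and 8.84 kb for beta and 3.85 kb and 11.2 kb for gamma members. Their median GC contents were 40.5%, 41.9% and 45.1%. Their median CpG observed/expected ratios were 0.651, 0.569 and 0.571, against 0.227 in all members.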
